A study of Schizosaccharomyces pombe with 4 samples.

Results

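In Schizosaccharomyces pombe, the fission yeast, binding of Taz1 was mapped on 2 of the 4 arrays of the series, once with an antibody raised against recombinant Taz1 in wild-type cells (Taz1_wt) and once with an antibody against GFP in taz1GFP cells, whose Taz1 carries that tag (Taz1_GFP). The comparison asks at which tiles, and with which height and width, the tagged and the untagged map agree or differ. It rests on 41446 probes measured on both arrays, of 41551 probes that are not controls. Both cultures grew in log phase in rich medium, were fixed with paraformaldehyde and were sheared to fragments of 500 to 1000 bp, and DNA from the immunoprecipitate (Cy5) was hybridised against DNA of the whole-cell extract (Cy3) of the same cells. The labels give no promoter, tag position or clone number for the tagged strain. No GFP antibody array on cells without a tag was analysed here, so signal that the GFP antibody gives without Taz1-GFP cannot be told apart from Taz1-GFP. Strain, antibody and array change together between the 2 groups, with 1 array each, so values below describe these arrays and carry no test between groups. Each value is the log2 ratio of immunoprecipitate to whole-cell extract, centred on the median of its array, and the spread over tiles is not a spread over cultures.

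Taz1 is the fission yeast member of the TRF family of telomere proteins. It binds double-stranded telomere repeats through a Myb-type domain, recruits Rap1 and Rif1, and is part of the shelterin complex that caps chromosome ends. Away from the ends it has been found at a limited number of chromosomal sites, where it is known to hold back late replication origins and to act in the assembly of facultative heterochromatin. Telomere repeats of this yeast are variable and built around the letters GGTTAC. GFP is a fluorescent protein that serves here only as a handle for a commercial antibody.

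The stretches of DNA below lie at tall peaks and are shown for the copies of the telomere-like letters that they hold or lack. They are a selection, so how many of them hold copies is not the share among tall peaks. Windows not shown include that between prl46 and iec1, with 1 copy, and that at mae1, with 0. Each is the 120-base window richest in GGTTA and its complement TAACC within 500 bp of the summit tile and outside annotated genes, in the plus strand of RefSeq assembly ASM294v3, and capitals mark GGTTA or TAACC. The first 6 belong to peaks found on both arrays, and the last pair to peaks that reached 2-fold on Taz1_GFP alone.
between erf2 and SPBC3H7.08C (chrII:1868292-1868411): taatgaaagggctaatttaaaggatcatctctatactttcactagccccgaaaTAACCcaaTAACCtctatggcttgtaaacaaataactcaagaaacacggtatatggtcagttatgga
between SPBC19C7.04C and rcr1 (chrII:2828906-2829025): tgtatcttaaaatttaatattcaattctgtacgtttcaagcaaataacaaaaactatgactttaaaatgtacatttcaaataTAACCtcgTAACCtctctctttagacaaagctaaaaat
between gpa2 and avl9 (chrI:2521119-2521238): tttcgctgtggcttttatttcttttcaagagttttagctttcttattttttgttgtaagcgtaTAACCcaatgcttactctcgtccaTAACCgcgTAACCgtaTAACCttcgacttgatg
between SPBC24C6.09C and coa6 (chrII:2339265-2339384): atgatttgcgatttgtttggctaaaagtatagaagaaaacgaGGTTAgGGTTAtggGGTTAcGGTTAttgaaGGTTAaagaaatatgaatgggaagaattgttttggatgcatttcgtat
between gap1 and sds23 (chrII:949307-949426): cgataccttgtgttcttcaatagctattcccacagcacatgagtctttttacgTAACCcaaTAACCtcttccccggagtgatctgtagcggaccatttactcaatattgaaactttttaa
between cuf1 and rod1 (chrI:410451-410570): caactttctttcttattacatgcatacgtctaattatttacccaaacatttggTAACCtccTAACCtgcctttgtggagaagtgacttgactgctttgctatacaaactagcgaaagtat
between arv1 and sdh2 (chrI:1894897-1895016): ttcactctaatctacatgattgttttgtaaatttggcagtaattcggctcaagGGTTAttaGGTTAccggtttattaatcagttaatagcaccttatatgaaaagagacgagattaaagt
between duf8901 and SPAC806.06C (chrI:243844-243963): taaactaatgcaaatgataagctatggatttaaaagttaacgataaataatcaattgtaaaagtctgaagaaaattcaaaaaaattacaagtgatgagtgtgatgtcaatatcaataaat
In the first 7 of these stretches 2 copies stand in tandem with 3 bases between them, a spacing written GGTTANNNGGTTA below, and the window between duf8901 and SPAC806.06C holds no copy. Positions of sequences are those of the assembly, whereas positions of regions given further on are those in the probe names, and the sources used here do not name their build.

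The maps agreed in their main features and differed in a few classes of tiles. Over 41149 chromosome tiles Pearson's r was 0.50 and Spearman's rho 0.33, and over 39691 internal tiles (those beyond 50 kb from an end of I or II and 100 kb from an end of III, and not in a centromere) r was 0.44. These points share array design, base composition and position. The single channels were closer between the arrays than their ratio, with an r of 0.89 for whole-cell extract and 0.83 for immunoprecipitate over internal tiles. The robust standard deviation of the ratio was 0.24 on Taz1_wt and 0.28 on Taz1_GFP. Internal tiles as a whole had a median difference of −0.00 (Taz1_GFP minus Taz1_wt, interquartile range −0.20 to 0.20).

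**Figure D1:**
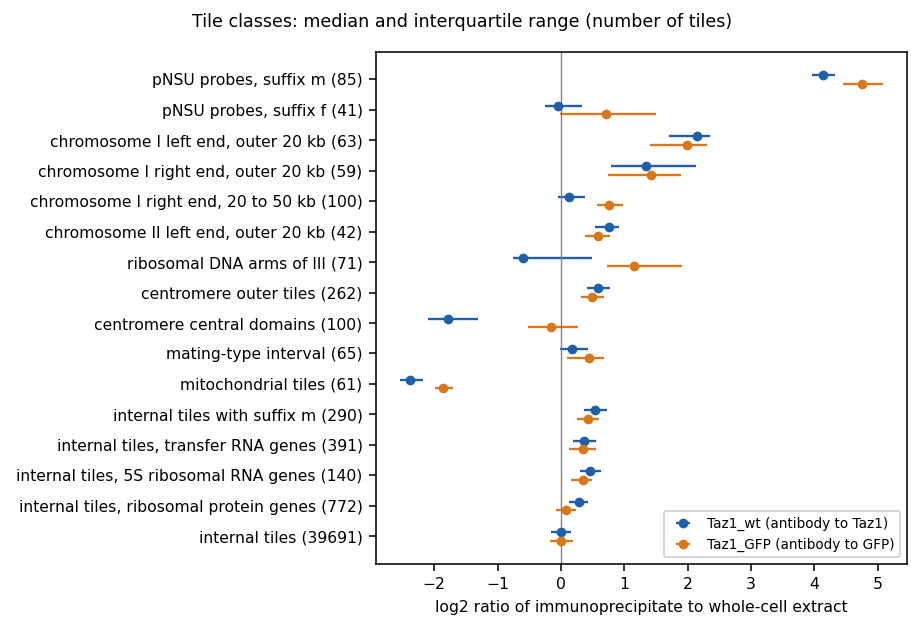
Median log2 ratio of immunoprecipitate to whole-cell extract on Taz1_wt (blue) and Taz1_GFP (orange) for classes of tiles, with bars for the interquartile range and the number of tiles in brackets. The arrays lie furthest apart in the ribosomal DNA arms of chromosome III (−0.60 and 1.16) and the centromere central domains (−1.78 and −0.15), and close together at the outer 20 kb of chromosome I and in the outer centromere tiles.

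Telomere-proximal DNA, the known site of Taz1, was high on both arrays. In the outer 20 kb of the left end of chromosome I the median was 2.15 on Taz1_wt (interquartile range 1.70 to 2.36) and 1.99 on Taz1_GFP (1.41 to 2.30) over 63 tiles, with an r of 0.93 between the arrays. In the outer 20 kb of its right end the medians were 1.34 and 1.43 over 59 tiles, with an r of 0.89. The subtelomeric helicase gene tlh1, which encodes a RecQ-type helicase next to the telomere, had means of 2.30 ± 0.25 on Taz1_wt and 2.21 ± 0.21 on Taz1_GFP (SD over 21 tiles). Chromosome II was lower on both, with medians of 0.75 and 0.58 in the outer 20 kb of its left end over 42 tiles. No tile lay in the outer 30 kb of the right end of chromosome II in the assembly, and from 30 to 40 kb the medians were 0.73 and 0.66. Tile by tile, the median difference in the outer 20 kb was −0.19 at the left end of I, −0.09 at its right end and −0.12 at the left end of II, while the medians themselves were higher on Taz1_GFP at the right end of I, so the direction there depended on the summary used.

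The probes of the pNSU clones, a set of plasmids that includes common sources of telomere probes in this yeast, gave the highest values of either array. The 85 pNSU probes measured on both arrays that carry the suffix m in the design had medians of 4.13 on Taz1_wt (3.96 to 4.33) and 4.75 on Taz1_GFP (4.46 to 5.08). Their r between the arrays was 0.79. The difference lay in the whole-cell extract: relative to the array median, the immunoprecipitate was at 3.72 and 3.75 on a log2 scale, whereas the extract was at −0.33 on Taz1_wt and −1.18 on Taz1_GFP. The part of the extract in the ratio was not tested. The 21 probes of pNSU71 with suffix f, in contrast, stayed near the array median at −0.06 and −0.02, although the 7 suffix m probes of the same clone were at 4.09 and 4.60. The 14 suffix f probes of pNSU77 had medians of −0.50 on Taz1_wt and 1.19 on Taz1_GFP, the widest gap among the clones.

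**Figure D2:**
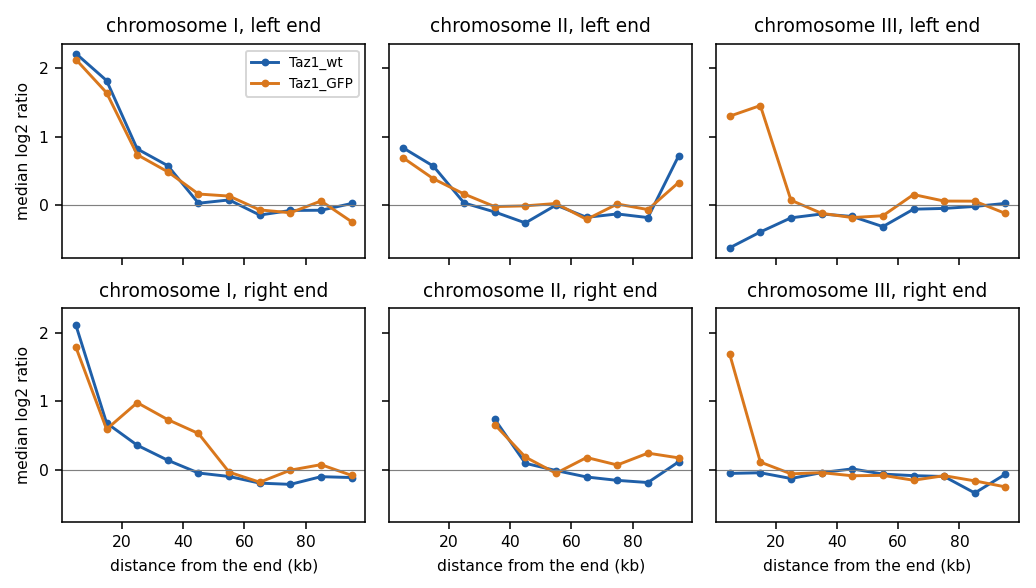
Median log2 ratio in steps of 10 kb from each chromosome end, for Taz1_wt (blue) and Taz1_GFP (orange). The arrays follow each other closely over the outer 50 kb of the left end of I, and part most at the right end of I between 20 and 50 kb and in the outermost steps of III. Smaller gaps lie elsewhere in both directions, such as 0.32 at 60 to 70 kb from the right end of II and −0.29 at 90 to 100 kb from its left end (median of Taz1_GFP minus Taz1_wt).

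Further in from the right end of chromosome I the maps parted. From 20 to 50 kb the median was 0.13 on Taz1_wt (−0.05 to 0.38) and 0.76 on Taz1_GFP (0.58 to 0.98) over 100 tiles, and 98.0% of these tiles were higher on Taz1_GFP, against 49.4% of internal tiles. The tagged signal fell slowly there, from 0.98 at 20 to 30 kb to 0.73 and 0.53 in the next steps, while the untagged signal fell from 0.36 to 0.14 and −0.05. At 50 to 60 kb both were back near the array median, at −0.10 and −0.04. The same stretch of the left end had medians of 0.49 and 0.42, with 45.8% of 96 tiles higher on Taz1_GFP. Of the median difference of 0.61 at the right end, the immunoprecipitate gave 0.39 and the extract −0.20.

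The ribosomal DNA arms at both ends of chromosome III, which hold the genes for the large ribosomal RNAs, had a median above 2-fold on the tagged map and below the array median on the untagged one. Over 71 tiles the median was −0.60 on Taz1_wt (−0.76 to 0.48) and 1.16 on Taz1_GFP (0.73 to 1.91). All 71 tiles were higher on Taz1_GFP, by a median of 1.62 (1.04 to 1.98). The left arm (55 tiles) differed by 1.66 and the right arm (16 tiles) by 1.55. High and low tiles inside the arms partly coincided, with an r of 0.72. Most of it lay in the immunoprecipitate, which was higher by 1.29 on Taz1_GFP, while the extract changed by a median of −0.38. The mutant array Taz1_L593F, made with the same antibody as Taz1_wt, had a median of −0.65 in these arms, and the Rif1_Myc array had −0.06. Beyond the arms, the other 537 tiles of the outer 100 kb of chromosome III had medians of −0.09 and −0.08. These arms are repeated in many copies, so each probe reports their sum.

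Centromeres showed both agreement and the largest gap in the extract channel. Their outer tiles, which hold the repeats where heterochromatin forms, had medians of 0.58 on Taz1_wt (0.41 to 0.78) and 0.48 on Taz1_GFP (0.31 to 0.68) over 262 tiles. The central domains, where the histone H3 variant Cnp1 and the kinetochore assemble, had medians of −1.78 (−2.10 to −1.31) and −0.15 (−0.51 to 0.27) over 100 tiles. By chromosome, the median difference was 1.74 on I, 1.41 on II and 1.34 on III. The immunoprecipitate did not rise there: it was at −2.58 on Taz1_wt and −3.52 on Taz1_GFP relative to the array median. The extract, however, was at −0.71 on Taz1_wt and −3.44 on Taz1_GFP, a median change of −2.53, which leaves the ratio higher on Taz1_GFP. In unscaled terms the median Cy3 spot signal was 16037 on Taz1_wt and 1718 on Taz1_GFP, against local backgrounds of 166 and 131. The extract of Taz1_L593F was at −1.10 and that of Rif1_Myc at −3.81 in the same tiles, so the 4 arrays formed a high and a low pair in the extract. With another background correction (normexp) the difference was 0.49 in place of 1.51, and the part of the extract in it was not tested.

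**Figure D3:**
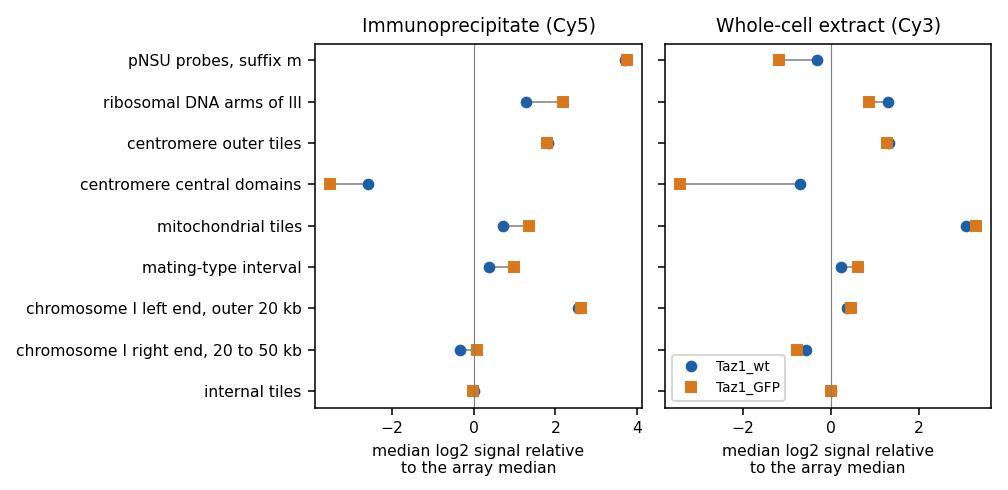
Median log2 signal of the immunoprecipitate (left, Cy5) and the whole-cell extract (right, Cy3), each relative to its array median, for 9 classes of tiles on Taz1_wt (blue circles) and Taz1_GFP (orange squares), joined by grey lines. The centromere central domains are lower on Taz1_GFP in both channels, by far more in the extract (−0.71 and −3.44), whereas the ribosomal DNA arms are higher on Taz1_GFP in the immunoprecipitate (1.27 and 2.18).

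Smaller class differences were seen elsewhere. The mating-type interval between mat1 and mat3 on chromosome II, whose silent cassettes lie in heterochromatin, had medians of 0.18 and 0.44 over 65 tiles, and 44 of them (67.7%) were higher on Taz1_GFP, against 49.4% of internal tiles. The 4 measured mating-type genes were each higher on Taz1_GFP, as were 2523 of 5108 protein-coding genes, and they share a region and tiles. Of these, mat1-Mc had the highest Taz1_wt mean, 0.54 ± 0.57 against 0.69 ± 0.22 on Taz1_GFP (SD over 6 tiles), and mat1-Mi the lowest, 0.17 ± 0.28 against 0.57 ± 0.12 (SD over 5 tiles). Mitochondrial DNA, which lies outside the nucleus, had a low ratio on both arrays, at −2.38 and −1.87 over 61 tiles. All 61 were higher on Taz1_GFP, by a median of 0.49. Relative to the array median the immunoprecipitate was at 0.71 on Taz1_wt and 1.37 on Taz1_GFP, and the extract at 3.07 and 3.31.

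Genes read by RNA polymerase III were above the array median on both arrays. Tiles within 500 bp of transfer RNA genes had medians of 0.37 on Taz1_wt and 0.34 on Taz1_GFP over 391 internal tiles, and those within 500 bp of 5S ribosomal RNA genes had 0.46 and 0.34 over 140 tiles. Of the 5S tiles 97 were higher on Taz1_wt and 30.7% on Taz1_GFP, with a median difference of −0.13, whereas 46.0% of the tRNA tiles were higher on Taz1_GFP. The share over all internal tiles was 49.4%, so that of the tRNA tiles was near it. Over 170 measured tRNA genes, those in centromeres included, the median of gene means was 0.39 and 0.34, and 67 were higher on Taz1_GFP and 103 on Taz1_wt. Among protein-coding genes 2523 of 5108 were higher on Taz1_GFP. SPBTRNAALA.10 and SPBTRNAILE.07, which share 1 tile, had the highest Taz1_wt value and stood at 0.93 on Taz1_GFP. SPBTRNAVAL.07, at the edge of the central domain of centromere II, had the lowest (−2.08 against −0.21).

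Ribosomal protein genes leaned to the untagged map. Of 141 genes for cytosolic ribosomal proteins, 122 had a higher mean on Taz1_wt and 19 on Taz1_GFP, with medians of 0.25 and 0.07, whereas 2585 of 5108 measured protein-coding genes were higher on Taz1_wt. rps29 had the highest Taz1_wt mean, 0.67 ± 0.16 against 0.41 ± 0.15 (SD over 6 tiles), and rpl2402 the lowest, −0.10 ± 0.11 against 0.04 ± 0.23 (SD over 6 tiles). No member of this list had a mean of 2-fold on either array, against 15 and 32 of 5108 protein-coding genes on Taz1_wt and Taz1_GFP. A count of 0 of 141 is near those shares. Neighbouring genes share tiles, so these counts are not over independent genes.

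Of 16 other highly transcribed genes 11 were higher on Taz1_wt, beside 2585 of 5108 protein-coding genes. act1, the actin gene, had the highest Taz1_wt mean of these, 0.54 ± 0.19 against 0.31 ± 0.20 (SD over 11 tiles), and fba1, which encodes fructose-bisphosphate aldolase, the lowest, −0.22 ± 0.28 against −0.00 ± 0.22 (SD over 8 tiles). The enolase gene eno101 went the other way, at 0.31 ± 0.21 and 0.86 ± 0.86 (SD over 9 tiles), beside the peak described below. Meiotic genes were near the array median on both, with list medians of 0.01 and −0.04 over 12 measured genes, mei4 highest on Taz1_wt (0.25 against 0.08) and mug9 lowest (−0.19 against −0.06). The taz1 gene itself had means of −0.12 ± 0.19 and 0.04 ± 0.21 (SD over 12 tiles), and the labels do not say whether the tag lies at that gene.

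At 2-fold, internal peaks were fewer on the untagged map, and each was also on the tagged one. A region was a run of tiles with a running median over 3 tiles of 2-fold or more, and neighbouring runs less than 1 kb apart were joined. Taz1_wt had 14 such regions and Taz1_GFP 61, from 0.227% and 0.834% of internal tiles at or above that level. Taz1_GFP also had the wider spread of ratios, and the gap in number was smaller once spread was taken into account. Scaled to equal spread the arrays had 21 and 49 regions, and at 4 MADs (median absolute deviations) of each array 20 and 43. Each of the 14 overlapped a Taz1_GFP region (100% of that list), and 13 of the 61 overlapped a Taz1_wt region (21.3% of that list). Joining overlapping regions gave 13 shared regions and 48 on Taz1_GFP alone. Regions on Taz1_wt alone numbered 0, but this rested on the setting: 32 of 69 Taz1_wt regions had no Taz1_GFP region under normexp, 72 of 148 at 1.5-fold, 19 of 49 with single tiles, 3 of 20 at 4 MADs (median absolute deviations), 3 of 21 after scaling to equal spread, 2 of 18 with loess and 1 of 16 without joining. The 19 internal tiles with a Taz1_wt running median of 1.5 to 2 and the 18 at 2 or more were all at least 2-fold on Taz1_GFP.

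**Figure D4:**
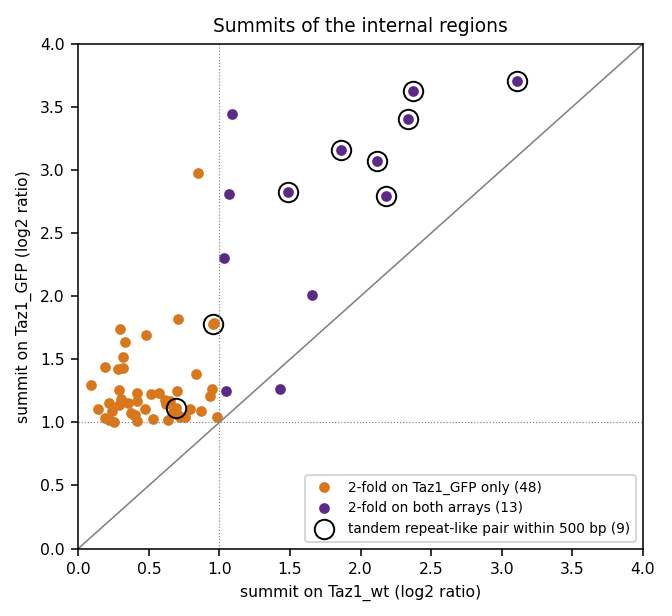
Summit log2 ratio of each internal region on Taz1_wt (horizontal) and Taz1_GFP (vertical), purple for the 13 shared regions and orange for the 48 that reached 2-fold on Taz1_GFP alone; the grey diagonal is equality and dotted lines mark 2-fold. Rings mark the 9 regions with GGTTANNNGGTTA within 500 bp of the summit tile, which include each of the 6 regions at or above 1.8 on Taz1_wt.

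Shared peaks were taller on the tagged map by a margin that depended on the scale. The median summit, the highest running median in the region, was 1.66 on Taz1_wt and 2.83 on Taz1_GFP, and the median difference was 1.07 (interquartile range 0.60 to 1.30), with 12 of 13 regions higher on Taz1_GFP. It was 0.61 with both arrays scaled to equal spread and 0.32 with normexp, each over the regions shared under that setting. The order of heights was partly kept, with a Spearman's rho of 0.66 over the 13 regions, which were chosen for height on both arrays. At these summits the immunoprecipitate was higher by a median of 0.72 on Taz1_GFP and the extract changed by −0.26, so both channels took part in the difference. The channel values are relative to array medians.

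The tallest peak of both maps lay between SPBC3H7.08C and the palmitoyltransferase subunit gene erf2 (chromosome II, 1866000 to 1873800), with summits of 3.11 on Taz1_wt and 3.71 on Taz1_GFP. Next came the region between SPBC19C7.04C and rcr1 (II, 2826900 to 2833800) with 2.37 and 3.63, and the region at ivn1 (II, 1495800 to 1503300) with 2.33 and 3.40. These regions ran over 26, 23 and 25 tiles.
The region between gpa2, the G protein alpha subunit of glucose sensing through cAMP, and avl9 (I, 2521200 to 2524500) had 2.18 and 2.80. The region between SPBC24C6.09C and coa6, a cytochrome oxidase assembly gene (II, 2339400 to 2343000), had 2.12 and 3.07. The region between gap1, a GTPase-activating protein of Ras, and sds23 (II, 948000 to 951900) had 1.86 and 3.16. The region between cuf1, a copper-sensing transcription factor, and rod1 (I, 408000 to 413100) had 1.49 and 2.83. All 7 were thus higher on Taz1_GFP, by 0.60 to 1.34.

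Both malate genes stood apart from these 7 because their peaks lay in coding exons and their summits differed less between the arrays. A small difference was not particular to them, as the region between mug147 and SPBTRNAGLU.08 had 1.05 and 1.25. By highest single tile, mae1 stood at 2.44 on Taz1_wt and 3.10 on Taz1_GFP, and mae2 at 1.73 and 1.28. On that measure mae1 did not stand apart from all of the 7. The peaks beside erf2 (3.29 and 3.98) and avl9 (2.24 and 2.93) differed by about as much, and the rest of the 7 by more. The region in mae1, which encodes the malate permease (I, 4907700 to 4908900), had summits of 1.66 and 2.01. The region in mae2, which encodes malic enzyme (III, 275400 to 277200), had 1.43 and 1.27 and was the single shared region higher on Taz1_wt.

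A second set of shared peaks was low on the untagged map and tall on the tagged one. Between prl46 and iec1, a subunit gene of the INO80 remodelling complex (I, 4645800 to 4651200), the summits were 1.09 and 3.44, which made it number 10 in height on Taz1_wt and number 3 on Taz1_GFP. Between cup1 and eno101 (II, 2199000 to 2202900) they were 1.07 and 2.81. Between mug157 and SPAC1093.07 (I, 4598700 to 4600800) they were 1.04 and 2.31. The region between mug147 and SPBTRNAGLU.08 was also just above 2-fold on Taz1_wt, at 1.05, but reached only 1.25 on Taz1_GFP. The 3 shared regions just inside 2-fold on Taz1_wt were thus those at mug157, mug147 and cup1 (1.04, 1.05 and 1.07). The 3 Taz1_GFP regions just outside it lay between pkp1 and SPNCRNA.202 (0.99), ofd1 and sus1 (0.96) and arv1 and sdh2 (0.96), with 1.04, 1.79 and 1.78 on Taz1_GFP, so the border between shared and unshared peaks was not a gap in height.

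At the 48 regions seen on Taz1_GFP alone, the untagged map was above its array median. The median summit was 1.16 on Taz1_GFP (1.07 to 1.32) and 0.48 on Taz1_wt (0.30 to 0.71), and 20 of the 48 reached 1.5-fold on Taz1_wt. Of all internal tiles 1.42% had a running median at that level, but the summit is the highest value in a region, so these shares are not like for like. At the summit tile itself the median of single tiles was 1.25 on Taz1_GFP and 0.39 on Taz1_wt, and 1200 bp before it they were 0.36 and 0.03. The immunoprecipitate at these summits was higher by a median of 0.84 on Taz1_GFP and the extract by 0.15. The regions were chosen for their height on Taz1_GFP, so the gap in height is a description.

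Of these 48, the tallest lay between duf8901 and SPAC806.06C (I, 243900 to 248100), with summits of 0.85 on Taz1_wt and 2.97 on Taz1_GFP. This peak ranked with the tallest shared ones on Taz1_GFP, and its immunoprecipitate was higher by 1.83 with the extract changed by 0.15. The next 4 lay between genes: between SPATRNAGLY.01 and the vacuolar ATPase subunit gene vma1 (0.71 and 1.82), between ofd1, a dioxygenase that controls the oxygen-responsive factor Sre1, and sus1 (0.96 and 1.79), between arv1 and the succinate dehydrogenase gene sdh2 (0.96 and 1.78), and between tas3, a subunit of the RNA-induced silencing complex RITS, and apc15 (0.29 and 1.74).
Next were zfs1, an mRNA-binding zinc finger protein gene (0.48 and 1.70), and scr1, a zinc finger repressor of carbon metabolism genes (0.33 and 1.63), with the summit tile in the gene but outside its coding exons. They were followed by the stretch between the condensin gene cut3 and erv2 (0.32 and 1.52), that between the ribosomal stalk gene rpp202 and mat3-Mi (0.19 and 1.44), and SPAC30C2.08 (0.32 and 1.43). Each of these 10 peaks was under 2-fold on Taz1_wt by the choice of the group.

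Few of the peaks lay in coding sequence. The summit tile used here and for the motif windows was that of Taz1_wt in shared regions and that of Taz1_GFP in the others. The summit tile was between genes in 10 of 13 shared regions and in 27 of the 48 others, against 20.7% of internal tiles. Coding exons held it in 2 and 4 regions, against 58.5% of internal tiles. Among the regions on Taz1_GFP alone, 17 had the summit in a gene outside its coding exons, against 1 of the shared regions and 20.8% of internal tiles. Mean GC content was a median of 33.9% over shared regions and 31.6% over the others, and the median of internal tiles was 36.3%. The ratio correlated with GC content at an r of −0.15 on Taz1_wt and −0.20 on Taz1_GFP over internal tiles, and the part of base composition in the peaks was not tested.

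**Figure D5:**
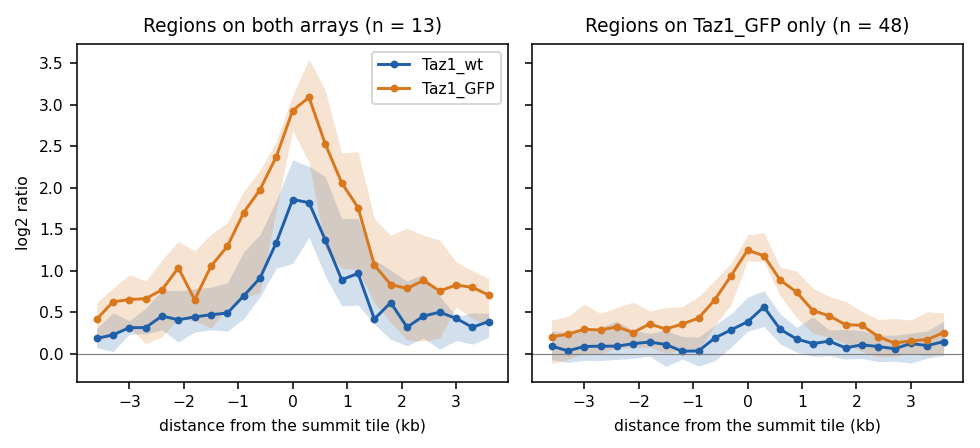
Median log2 ratio of single tiles by distance from the summit tile, with bands for the interquartile range, for the 13 shared regions (left) and the 48 regions on Taz1_GFP alone (right), on Taz1_wt (blue) and Taz1_GFP (orange). On both sides the rise of Taz1_wt sits under that of Taz1_GFP and has its highest point within 300 bp of the summit tile. The summit tile is the Taz1_wt summit for shared regions and the Taz1_GFP summit for the others. The high point of Taz1_wt at the centre of the left panel is therefore set by that choice.

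Summits of the shared regions lay at the same place on both maps within the tile spacing. In 8 of 13 shared regions the summit was the same tile, and in the other 5 it was 300 bp away, the spacing of the tiles. In the 48 others the Taz1_wt summit was sought inside the Taz1_GFP region, and 25 of these held only 1 or 2 tiles, so their offsets are not informative. The peaks were wider on Taz1_GFP when width was taken as the run of tiles at or above 50% of the summit log2 ratio: the median was 1800 bp on Taz1_wt and 2700 bp on Taz1_GFP over the 13 shared regions, with 9 wider on Taz1_GFP, 3 equal and 1 narrower. Taken at 50% of the linear enrichment, the median was 1500 bp on both, so the difference in width depended on that scale. Fragment length and the running median limit how narrow a peak can appear.

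Among the 13 shared regions the largest width differences were seen at 5 regions wider on Taz1_GFP and 1 narrower. The peak between gpa2 and avl9 was 1800 bp on Taz1_wt and 3000 bp on Taz1_GFP, and so was that between prl46 and iec1. The peaks beside erf2 and between cup1 and eno101 were 1800 and 2700 bp, and that between gap1 and sds23 was 2400 and 3300 bp. The peak beside rcr1 was 3600 bp on Taz1_wt and 2700 bp on Taz1_GFP. Differences of 900 bp are 3 tiles. Away from the summit, the shared regions stayed above the array median for several kilobases, with medians of 0.32 on Taz1_wt and 0.66 on Taz1_GFP at 3000 bp before the summit tile.

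The spaced pair GGTTANNNGGTTA, searched on both strands, was found within 500 bp of the summit tile in 7 of 13 shared regions, 2 of the 48 others and 52 of 39789 internal tiles (0.131%). These 7 were the peaks beside erf2, rcr1, ivn1, avl9, coa6, gap1 and cuf1, that is each of the shared peaks at or above 1.4 on Taz1_wt other than mae1 and mae2. The 2 others were the peak between arv1 and sdh2 and that between puf5 and SPAC4G8.04 (0.69 and 1.11). The pair was noticed in the printed stretches and counted on the same genome, so these counts describe these regions and carry no test.
The chromosomes held 15 internal sites of the pair, 11 of them between genes. The running median within 500 bp reached 2-fold on Taz1_GFP at 9 of the 15 and on Taz1_wt at 7, and these 9 all lay between genes. The remaining 6 sites were those in mic60, rum1, SPBC16G5.17 and cdc73, between SPBC1683.04 and thi7 and between nda2 and SPBC16A3.14, and their highest values were 0.20 on Taz1_wt and 0.39 on Taz1_GFP. The peak between cup1 and eno101 has no such pair within 500 bp but holds the window of 120 bases with the most copies of GGTTA or TAACC, 9, which is also the highest over internal tiles. Where the pair was absent, as at mae1, mae2, iec1, eno101 and duf8901, nothing follows from these windows about binding.

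Single matches of the shorter motifs set the peaks apart less. GGTTAC was present in 5 of 13 shared windows (38.5%), 15 of 48 others (31.3%) and 22.4% of internal windows. GGTTACA, which contains it, was present in 1 of 13, 4 of 48 and 7.89%. Windows of 120 bases with 4 or more copies of GGTTA or TAACC were near 3 of 13 shared summits, 0 of the 48 others and 0.0704% of internal tiles. Over windows of 100 kb the registration on the assembly was off by up to 300 bp, so a match may lie that much nearer or farther than computed. Single tiles close to a change of shift can be off by more.

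Comparing equal numbers of tiles takes out the difference in the number called. Tiles were ranked by their running median over 3 tiles, so neighbouring tiles can enter together. Of the 50 highest internal tiles of each array 30 were common to both, of the 100 highest 69, of the 200 highest 102 and of the 1000 highest 369. The 1000 highest are 2.52% of internal tiles. The 100 highest tiles started at a running median of 0.96 on Taz1_wt and of 1.75 on Taz1_GFP. Among 72 internal tiles with a Taz1_GFP running median of 2 or more, the median on Taz1_wt was 1.53 and 53 were at least 2-fold there. Among 198 tiles between 1 and 1.5 on Taz1_GFP, the median on Taz1_wt was 0.48 and 14 were at least 2-fold. The share in common was thus 60% and 69% for the 50 and 100 highest tiles and 36.9% for the 1000 highest.

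Large differences at internal tiles were mostly in favour of Taz1_GFP, smaller ones less so. Tiles higher on Taz1_GFP by 1 or more numbered 176 of 39691 (0.443%), and tiles higher on Taz1_wt by 1 or more numbered 29 (0.0731%). Runs of at least 3 tiles that differed by 0.5 or more numbered 203 for Taz1_GFP and 128 for Taz1_wt, and 16 of the 128 but 1 of the 203 touched a ribosomal protein gene. Tiles at these genes were 772 of the 39691 internal tiles. A run spans several tiles, so shares of runs and of tiles are not like for like. The 5 runs of at least 3 tiles with the highest difference lay between prl46 and iec1 (running median of the difference 2.48), at SPAC806.06C (2.20), between cup1 and eno101 (1.74), between gap1 and sds23 (1.58) and at scr1 (1.53), all at peaks already named. The 10 runs with the lowest difference were instead stretches where Taz1_GFP was under its array median and Taz1_wt near it. They lay between SPCC191.10 and the invertase gene inv1 (−1.12), between SPCC61.05 and cbl1 (−1.12), at SPAC1002.20, between apm3 and dbl7 (−0.91), at rpc11 (−0.90), between rrp1402 and SPBC947.06C (−0.90), at the nucleoporin gene nup146 (−0.88), at vps17 (−0.85), at the calcium pump gene pmr1 (−0.85) and at SPAC227.17C (−0.83). Run means there were between −0.08 and 0.30 on Taz1_wt and between −1.01 and −0.52 on Taz1_GFP, so none of the 10 was a peak on Taz1_wt.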

How the data were processed

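Chromatin immunoprecipitation was read on custom 2-colour Agilent arrays of 60-base probes spaced by 300 bp, with Cy5 on immunoprecipitate and Cy3 on whole-cell extract and no dye swap, per the labels. Per the file headers, the scanner software was Agilent Feature Extraction 11.5.1.1, and the deposited processed signals are intensity values after background subtraction and dye scaling. The deposited log10 ratios are red over green of these signals, and the deposited series matrix holds the same as log2 ratios without centring (array medians −0.03 for Taz1_wt and −0.05 for Taz1_GFP).

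For non-control probes, log2 of the processed red signal divided by green was taken, spots marked as outliers were left out (74 on Taz1_wt and 31 on Taz1_GFP), and each array was centred on its median, with no loess or quantile step. 1 probe of Taz1_GFP was not well above background and 0 were saturated. Median spot signals were 26414 (Cy3) and 8366 (Cy5) on Taz1_wt and 15977 and 12308 on Taz1_GFP, and the number of arrays, 1 in each group, limits the precision. Tiles were registered on RefSeq assembly ASM294v3 by the correlation of extract signal with GC content, in 9 segments of constant shift. In 126 of 126 windows of 100 kb the best shift was within 300 bp of its segment (mean r 0.452, against 0.0577 without a shift). The same correlation over the same tiles had set the shifts, so this is not an independent check. Tiles close to a change of shift can be off by more than 300 bp. At array position 3780000 of I the shift went from −900 to 4350 bp, and at 1100000 of III from 50 to −950 bp. Both places lie in centromeres, so the bounds of the centromere classes there are less exact. Gene names, classes, motifs and sequences rest on the registration.

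Centromeres were the longest interval without a protein-coding gene on each chromosome, their central domains lay between a pair of tRNA genes, and the ribosomal DNA arms ended at the innermost annotated rRNA gene. Gene values are means over tiles within 500 bp of the gene. Named regions were the 10 highest shared, the 10 highest on Taz1_GFP alone, 3 on each side of 2-fold on Taz1_wt, the 5 largest width differences (6 by ties), the 5 highest and 10 lowest difference runs, where runs were tiles at 0.5 or more, and, by Taz1_wt mean, the top and bottom gene per list. The members, lists and classes were chosen with earlier results of these data known. mcp5, mug1, tlh2 and the mat2 genes were not matched or had no measured tile. Region calling, heights and widths were tried on simulated peaks, all added above 2-fold to independent noise. That does not cover summits close to 2-fold, so it has no bearing on the border between shared and unshared regions. Alternatives were normexp with an offset of 50 and loess (limma 3.58.1, R 4.3.3), the matrix values, scaling to the mean MAD (median absolute deviation), other thresholds of 1.5-fold, 3-fold and 4 MADs, masks, heights, widths and overlaps. Other computations used Python 3 with NumPy, pandas and SciPy.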

Additional observations from a re-analysis of the deposited data

How the results depend on the processing

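With 1 array in each group, no array could be left out and no interval over cultures can be given. No paired analysis was possible because each group holds 1 array and the result comes from no test. Of the values recomputed under other settings, 82 stayed within the tolerance, 29 moved beyond it and 6 changed sign, and the cause was not tested. The tolerance was 1.5 times for counts, 0.1 for r and, for a median, its 95% order-statistic interval over regions or tiles, which is wide for the 13 shared regions (0.35 to 1.34 for the summit difference, so 0.61 under MAD scaling lay within it) and narrow for classes of many tiles. The counts of internal regions on Taz1_wt and Taz1_GFP, and of Taz1_GFP regions that overlapped a Taz1_wt region, were 69, 122 and 32 with normexp, 148, 288 and 75 at 1.5-fold, 7, 18 and 7 at 3-fold, and 49, 117 and 29 with single tiles. Regions on Taz1_wt alone, 0 at 2-fold, then numbered 32, 72, 0 and 19. Within the tolerance, the same counts of regions and overlaps were 21, 49 and 17 scaled to the mean MAD and 20, 43 and 16 at 4 MADs. With normexp the median summit difference was 0.32, and the median tile difference was −0.0173 at the I and II ends, 0.49 in the centromere central domains, 1.12 in mitochondrial tiles, 0.32 in pNSU probes, −0.0183 in internal suffix m tiles and 2.15 in the ribosomal DNA arms. With loess it was −0.0332 in outer centromere tiles, 0.82 in pNSU probes and 0.0166 in internal suffix m tiles. Scaled to the mean MAD it was −0.0297 at the I and II ends, −0.20 in outer centromere tiles, 0.80 in mitochondrial tiles, −0.002547 in pNSU probes and −0.20 in internal suffix m tiles. Means in place of medians gave 0.11 at the I and II ends, 0.22 at the III ends and 0.005162 over internal tiles. The I and II ends gave −0.14 over their outer 20 kb, and internal tiles −0.0241 in the uncentred series matrix. Median widths at a fixed 1.5-fold level were 2700 bp on Taz1_wt and 6000 bp on Taz1_GFP, and the linear measure gave 1500 bp on Taz1_GFP. The higher ratio in the ribosomal DNA arms and central domains on Taz1_GFP kept its direction under each background, scaling and averaging setting run for it. That of pNSU probes did not under scaling. In the central domains the immunoprecipitate itself was lower on Taz1_GFP (−3.52 against −2.58).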
